A study of Arabidopsis thaliana with 8 samples.

Results

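The comparison described here sets mature median nectaries (MMN) against mature lateral nectaries (MLN) of Arabidopsis thaliana, at the same flower stage. Its members were the arrays whose titles name median or lateral nectaries of stage 14 to 15 flowers, which gave 2 MMN and 3 MLN arrays, 5 of the 8 arrays of the series. The other 3 arrays hold immature lateral nectaries (ILN) of stage 11 to 12 flowers, and their values are given only as context. The question was which genes distinguish the non-secretory median nectaries from the secretory lateral nectaries of open flowers.

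All plants were of the ecotype Columbia-0, with no transgene, mutation or treatment in any group. They were 30 to 35 days old and had been grown at 21 °C on a daily cycle of 16 h light and 8 h darkness. Nectaries were cut out by hand 4 to 8 h after dawn over several days, and 250 to 300 of them, by the sample records, were pooled for each array, each pool being a biological replicate from different plants. Labelling started from 250 ng of total RNA for MMN and 500 ng for MLN and ILN, so that nectary position and RNA input cannot be told apart in this design. Each pool was hybridized to an Affymetrix ATH1 array, a short-oligonucleotide array on which a probe set reads the 3' part of a transcript. The values are linear signals in arbitrary units, and every array has a median of 100.

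Floral nectaries are glands that release a sugar-rich fluid to pollinators. In the Arabidopsis flower the lateral pair lies at the base of the short stamens and is well supplied with phloem, while the median pair sits between the long stamens and yields little nectar. The YABBY factor CRABS CLAW (CRC) is needed to form them, and SWEET9, a sucrose exporter, together with the cell wall invertase CWINV4, which splits sucrose outside the cell, is needed to secrete.

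The oligonucleotides below are the primer pairs that the study designed to follow transcripts by RT-PCR. They are shown for the 3 genes with such primers that also differed between MMN and MLN on the arrays, and they identify the transcripts rather than the array probes. Each primer is written 5' to 3'. At1g74820 and JMT lie on chromosome 1 and UGT72E3 on chromosome 5.
At1g74820 forward: tgcatcactctcttcacgaaccct
At1g74820 reverse: tgagtcccggaggaatcacaaaca
JMT forward: aacaaggagggtttagggttcggt
JMT reverse: agcaactctcttcggttgtgggat
UGT72E3 forward: atttccttcgggagtggtggttct
UGT72E3 reverse: aaccgttgacactccttcgtgact
At1g74820, a protein of the cupin family, was the transcript most raised in MMN, whereas JMT, which methylates jasmonic acid, and UGT72E3, which glucosylates monolignols and related alcohols, were lower in MMN.

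Signals of the 5 arrays were closely alike. Log2 signals correlated at 0.988 between the 2 MMN arrays, at 0.976 to 0.982 among the MLN arrays and at 0.969 to 0.982 between MMN and MLN arrays. Between the MMN arrays 223 probe sets differed more than 2-fold, and 180 of them were higher on MMN 2. Within MLN the pairs of arrays had 403 to 949 such probe sets. The ratio of 3' to 5' signal of the second GAPDH control pair, a measure of RNA integrity and of labelling, was 1.97 and 2.08 on the MMN arrays, against 3.24, 2.38 and 1.85 on the MLN arrays, and the ranges overlapped. They also overlapped for the first GAPDH pair and the second actin pair. For the first actin pair the ratio was 8.28 and 8.66 on the MMN arrays, against 7.38, 7.08 and 8.09 on the MLN arrays, with no overlap, and the part of this in the results was not tested.

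Both nectary types carried the defining markers of nectaries at high signal. CRC read 13214 and 16636 in MMN, against 8916, 9912 and 16412 in MLN. SWEET9 read 15638 and 12764 in MMN, against 15056, 16748 and 14128 in MLN. CWINV4 read 10807 and 11856 in MMN, against 13138, 11636 and 11761 in MLN, so that for all 3 genes the arrays of the groups overlapped. Their log2 differences were 0.39, -0.11 and -0.10, none of them called. YAB5, another YABBY factor, had signals of 5802 and 6318 in MMN and 7294, 6397 and 5742 in MLN. Of the 9 measured members of the nectary identity list JMT alone passed the test, and the median log2 difference of the list was -0.09.

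Expression of 22746 probe sets was compared with a linear model in limma over all 8 arrays, and a probe set is called where its Benjamini-Hochberg adjusted p was under 0.05. Differences are MMN minus MLN on the log2 scale, given with their standard error. In all, 166 probe sets were called, which is 0.730% of those tested. Of these 130 were higher in MMN (0.572%) and 36 were lower (0.158%). A fold of at least 2 was reached by 161 of them (0.708%), 125 higher (0.550%) and all 36 lower. Without adjustment for the number of tests, 7.41% of the probe sets had a limma p under 0.05. The median difference of all probe sets was -0.03, 22289 of them lay within 2-fold, and 296 differed at least 2-fold without being called. All MMN arrays stood above all MLN arrays for 11.0% of the probe sets and below them for 14.1%. In bulk RNA of this kind, fewer cells of a type and less RNA per cell cannot be told apart.

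**Figure D1:**
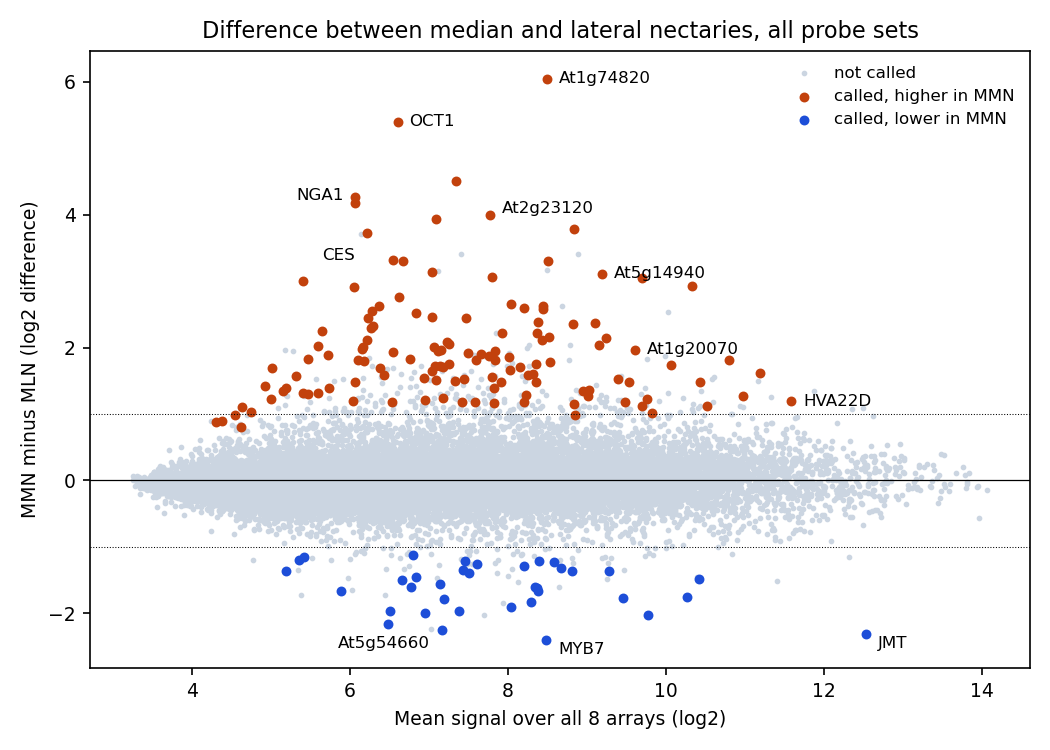
Log2 difference between MMN and MLN (vertical axis) against the mean log2 signal over all 8 arrays (horizontal axis), with each point a probe set and dotted lines at 2-fold. The 130 probe sets called higher in MMN reach a difference of 6.05, and the 36 called lower reach -2.40.

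Those higher in MMN had a median signal of 473 in MMN and 121 in MLN, with a median fold of 3.48. Those lower in MMN had a median signal of 128 in MMN and 395 in MLN, with a median fold of 2.98. MMN and MLN arrays did not overlap for any of the 130 or the 36, so separation of arrays adds nothing to a call. At 5-fold or more, 34 probe sets were called higher in MMN and 1 lower. Exactly 1 locus could be assigned to 76 of the probe sets that were higher and to 30 of those that were lower. Apart from a shared aquaporin and a shared glutamate decarboxylase probe set, the text names only these. The counts rested on both MMN arrays. Without MMN 1, 93 probe sets were called higher and 5 lower, and without MMN 2 the counts were 38 and 3. Over the 8 fits that each left out an array, 27 of the 130 and 2 of the 36 were called every time.

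The largest difference of all belonged to At1g74820, a cupin, one of a family of small barrel-shaped proteins that includes seed storage and germin-like proteins. Its signal was 11902 and 12038 in MMN, against 219.9, 156 and 173 in MLN. On the MMN arrays it was among the bright transcripts, and on the MLN arrays it was not far above the array median. The difference of 6.05 ± 0.29 is 66.1-fold (adjusted p = 5.1e-06). The signal in ILN was 97.8, 46.6 and 73.4, so that the transcript was bright in the median nectaries alone among these 3 tissues.

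Several of the named genes higher in MMN encode transcription factors. NGA1, a B3-domain factor of the NGATHA family that acts in style formation and in restraining lateral organ growth, read 792 and 503 in MMN, against 36.3, 41.1 and 28.7 in MLN. CES, the bHLH factor CESTA, which acts in brassinosteroid responses and in the reproductive tract of the pistil, read 554 and 579 in MMN, against 54.6, 37.5 and 37.9 in MLN. For both genes the MLN arrays lay well under the array median and the groups were far apart. NGA1 differed by 4.17 ± 0.31 (adjusted p = 8.0e-05) and CES by 3.73 ± 0.23 (adjusted p = 3.0e-05). They were the called members among 11 measured of 18 listed regulators of the style and gynoecium, a list whose median difference was 0.04. Among all probe sets with 1 locus, 0.533% were called higher and 0.210% lower. Counts of called list members stand beside these shares, on lists drawn up with earlier results known. BEE2, a bHLH relative of CES, had 534 and 516 in MMN and 613, 832 and 897 in MLN and was not called. SPT and ALC, bHLH factors of the pistil margin, were not called either, with differences of 0.49 and 0.05. In ILN, NGA1 had 41.4, 26.4 and 22.2 and CES 36.5, 34.8 and 30.3, as low as in MLN.

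At4g28140, an AP2-domain factor, had signals of 801 and 771 in MMN, against 52.7, 55.2 and 174 in MLN. The MMN arrays were nearly equal, while MLN 3 stood about 3-fold above the other MLN arrays. The gene was 9.86-fold higher in MMN (adjusted p = 0.0051), and its call was lost without MMN 2 (adjusted p = 0.063). ZAT6, a C2H2 zinc finger protein of stress responses that was picked here after its values were seen, differed by 1.53 ± 0.23, with 599 and 734 in MMN and 251, 253 and 190.1 in MLN. AGO7, the Argonaute of the trans-acting small RNA pathway that restrains auxin response factors, was chosen in the same way. It read 208 and 229 in MMN, against 47.0, 91.6 and 55.1 in MLN, a difference of 1.82 ± 0.28 (adjusted p = 0.011). Both calls depended on single arrays, that of ZAT6 being lost without MMN 1 or MMN 2 (adjusted p between 0.059 and 0.22) and that of AGO7 without MMN 1, MMN 2 or MLN 1 (adjusted p between 0.052 and 0.17). SUVH9, a SET-domain protein of RNA-directed DNA methylation, also chosen after its values were seen, had 1331 and 1191 in MMN and 472, 536 and 471 in MLN, and its call was lost without MMN 1, MMN 2 or MLN 1 (adjusted p between 0.053 and 0.12).

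**Figure D2:**
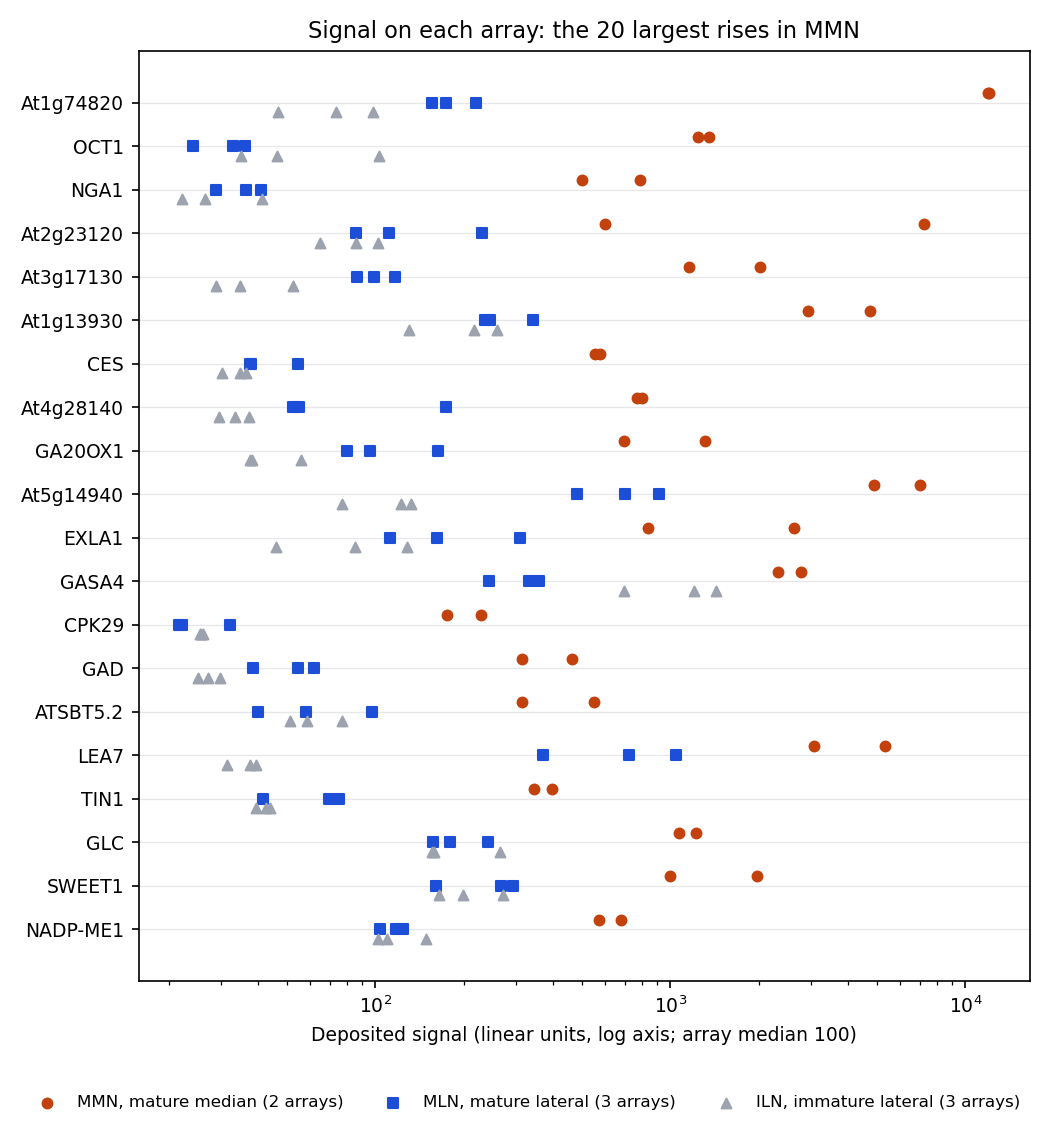
Deposited signal on each array (horizontal log axis) of the 20 genes with the largest called rises in MMN, with points for the 2 MMN, 3 MLN and 3 ILN arrays. At1g74820 has signals of 11902 and 12038 in MMN, the MMN points of At2g23120 lie far apart, and for GASA4 the ILN points fall between those of MMN and MLN.

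Carriers of small molecules were among the strongest rises. OCT1, an organic cation transporter linked to carnitine uptake, had 1350.5 and 1241 in MMN, against 32.9, 36.3 and 24.1 in MLN. It differed by 5.40 ± 0.39, or 42.2-fold (adjusted p = 7.4e-05), with the MLN arrays well below the array median. At5g14940, a transporter of the proton-coupled family that carries nitrate, peptides and hormones, was bright in MMN at 7011 and 4904, against 917, 704 and 483 in MLN. Its difference was 3.11 ± 0.31 (adjusted p = 0.0010). ILN had only 132, 122 and 77.0, so the 3 tissues were ordered MMN, MLN and ILN with no overlap of arrays.

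SWEET1, a plasma membrane glucose uniporter, was the called member among 16 measured SWEET genes. Its signal was 1959 and 996 in MMN, against 292, 268 and 161 in MLN. It rose by 2.59 ± 0.35 (adjusted p = 0.0062), although the MMN arrays differed by nearly as much as 2-fold and the call was lost without MMN 1 (adjusted p = 0.062). SWEET4, of the hexose-carrying clade, had 313 and 525 in MMN and 170.4, 181 and 146 in MLN, with a difference of 1.30 ± 0.32 that missed the threshold (adjusted p = 0.12). The median difference over the SWEET list was -0.11. Of the 5 other measured sugar carriers only OCT1 was called, which stands on that list as a member of the same carrier superfamily. STP13, a hexose-proton symporter, read 4688 and 3875 in MMN and 2524, 1941 and 4693 in MLN, and the groups overlapped. PIP2;5, an aquaporin, was bright in both at 13375 and 14157 in MMN and 5522, 4224 and 6868 in MLN. Its arrays did not overlap, but the difference of 1.34 ± 0.44 was not called (adjusted p = 0.35). It was the 1 measured gene of 21 listed aquaporins. A probe set shared by At2g37170 and At2g37180, which the study annotates as an aquaporin, was called higher in MMN by 2.65 (adjusted p = 0.0018). Its signal was 1783 and 1539 in MMN, against 193, 371 and 256 in MLN.

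Gibberellins are growth hormones made by successive oxidations. GA20OX1, the oxidase of the late step that usually sets their rate of synthesis, had 1312 and 694 in MMN, against 80.3, 164 and 95.7 in MLN. GASA4, a small cysteine-rich protein induced by gibberellin, had 2772 and 2320.2 in MMN, against 332, 242 and 358 in MLN. The differences were 3.14 ± 0.36 for GA20OX1 (adjusted p = 0.0021) and 3.05 ± 0.30 for GASA4 (adjusted p = 0.00080). These were the 2 called members among 10 measured of 37 listed gibberellin genes, where 0.533% of all probe sets with 1 locus were called higher. The list had 9 members with a difference above 0 and a median of 0.40. GA2OX6, an oxidase that inactivates gibberellins, had 1349 and 2006 in MMN and 877, 973 and 842 in MLN and was not called (adjusted p = 0.13). The biosynthetic oxidase GA3 and the receptor GID1A overlapped between the groups. In ILN the ranking of the called pair was split, since GA20OX1 had 38.2, 55.8 and 37.6, below MLN, while GASA4 had 1425, 695 and 1207, above MLN and below MMN.

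Of 3 measured genes of glutamate, GABA, proline and malate metabolism, 2 were called higher in MMN. The share over all probe sets with 1 locus was 0.533%. These 3 are what probe sets of 1 locus measured of 23 entries, on a list drawn up with earlier results known. GAD, glutamate decarboxylase 1, which makes GABA from glutamate, read 465 and 314 in MMN, against 62.0, 54.6 and 38.5 in MLN. NADP-ME1, a cytosolic malic enzyme that turns malate into pyruvate, read 681 and 574 in MMN, against 124, 118 and 104 in MLN. Both were higher in MMN, by 2.91 ± 0.26 (adjusted p = 0.00046) and by 2.45 ± 0.23 (adjusted p = 0.00070). The third measured member of that list, the asparagine synthetase ASN2, was dim and overlapped, with 107 and 111 in MMN and 99.7, 138 and 64.2 in MLN. A probe set shared by At2g02000 and At2g02010, which the study annotates as a putative glutamate decarboxylase, was called higher in MMN by 4.27 (adjusted p = 2.0e-05). Its signal was 895 and 530 in MMN, against 38.2, 37.8 and 31.5 in MLN. GLC, an acyltransferase-family protein known for its part in fertilization, was read by a pair of probe sets that both rose, by 2.59 on the brighter and by 1.69 on the dimmer. Its brighter probe set had 1068 and 1222 in MMN and 179, 242 and 157 in MLN.

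CPK29, a calcium-dependent protein kinase, had 227 and 174 in MMN, against 22.1, 32.1 and 21.6 in MLN. The gene was dim on every MLN array, well under the array median, and was 8.02-fold higher in MMN (adjusted p = 8.0e-05). CML23, a calmodulin-like protein picked after its values were seen, differed by 1.95 ± 0.31, with 415 and 452 in MMN and 163, 82.4 and 104 in MLN, a call that was lost without MMN 1, MMN 2 or MLN 2 (adjusted p between 0.054 and 0.19). TIN1, a protein of the endoplasmic reticulum that is induced by the glycosylation inhibitor tunicamycin, was the called member among 5 measured genes of protein folding. It read 397 and 345 in MMN, against 69.8, 75.2 and 41.5 in MLN, and differed by 2.62 ± 0.27 (adjusted p = 0.0012). BZIP60 and BZIP28, factors that switch on folding genes under stress, were not called, with differences of 0.27 and -0.14. ERDJ3B, a co-chaperone, had 1305 and 693 in MMN and 435, 469 and 431 in MLN and was not called either (adjusted p = 0.17).

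At3g17130, of the family of invertase and pectin methylesterase inhibitors, had 2007 and 1156 in MMN, against 86.4, 98.8 and 116 in MLN, and differed by 3.93 ± 0.31 (adjusted p = 0.00014). ATSBT5.2, a subtilisin-type protease, had 550.4 and 314 in MMN, against 97.7, 58.4 and 39.9 in MLN, and its call was lost without MMN 1 (adjusted p = 0.064). The MMN arrays thus stood above every MLN array for both, by the wider margin for At3g17130. At2g19970, of the pathogenesis-related PR-1 family, rose by 2.44 ± 0.28, and At3g52470, of the NDR1/HIN1-like family, by 2.38 ± 0.28. At1g13930, for which no role is given here, was high in MMN at 2933 and 4729.6, against 245, 235 and 342 in MLN, a difference of 3.79 ± 0.32 (adjusted p = 0.00024). EXLA1, an expansin-like wall protein, had the uneven values of 837 and 2633 in MMN, against 162, 112 and 308 in MLN. Its call (adjusted p = 0.029) was lost without MMN 2, MLN 1, MLN 2 or ILN 2 (adjusted p between 0.054 and 0.41). None of 8 measured wall-loosening genes on the list of expansins and xyloglucan enzymes was called, and their median difference was 0.04.

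The 2 MMN arrays differed widely in several transcripts known from drying and cold, and of the 4 given here At2g23120 alone was called. At2g23120, a late embryogenesis abundant (LEA) protein, had 599 and 7215 on MMN 1 and MMN 2, against 230.1, 86.2 and 111 in MLN. Its difference of 4.00 ± 0.78 was called (adjusted p = 0.044), but not without MMN 2, MLN 1, MLN 2, MLN 3 or ILN 2 (adjusted p between 0.074 and 0.20). LTI30, a dehydrin of the cold response, had 108 and 3445 on the same MMN arrays, against 47.1, 39.8 and 54.3 in MLN, and was not called (adjusted p = 0.17). In both genes MMN 2 was the high array, by over 10-fold relative to MMN 1, and MMN 1 was still above every MLN array. COR15A, a chloroplast protein that protects membranes in the cold, had 1241 and 6847 in MMN, against 417, 145 and 346 in MLN, and just missed the threshold (adjusted p = 0.060). At4g30650, of a family of small membrane proteins induced by cold and salt, had 541 and 4643 in MMN and 135, 82.7 and 484 in MLN and was not called either. LTI30, COR15A and At4g30650 are shown because of their values.

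LEA7, another LEA protein, was more even, with 3070.2 and 5342 in MMN, against 1045, 722 and 370.1 in MLN. It was the called member among 10 measured of 37 listed genes of abscisic acid and desiccation, by 2.63 ± 0.38 (adjusted p = 0.0088). Its call was lost without MMN 2 (difference of 2.23). Among all probe sets with 1 locus, 0.533% were called higher. The list had 8 members with a difference above 0 and a median of 0.65, against -0.03 over all probe sets. The largest differences on the list, 3.71 for LTI30 and 3.40 for COR15A, belong to genes far higher on MMN 2 than on MMN 1. The dehydrins ERD10 and COR47 were abundant in both nectary types, and their arrays overlapped. ERD10 had 7766 and 9439 in MMN and 6285, 8102 and 7908 in MLN. COR47 had 7518 and 9529 in MMN and 4397, 4425 and 8276 in MLN, with MLN 3 the high one of its group. LEA7 had 31.3, 37.7 and 39.4 in ILN, well below the array median, and MLN stood between ILN and MMN.

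Smaller but even rises were found for other stress-linked genes, which were chosen after their values were seen. HVA22D, whose family is induced by abscisic acid, had 9156 and 9109 in MMN, against 3694, 4066 and 4234 in MLN. XERICO, a RING-finger protein that promotes accumulation of abscisic acid, had 3545 and 3171 in MMN, against 1580.1, 985 and 1709 in MLN. NCED4, now known as CCD4, which cleaves carotenoids, had 617 and 681 in MMN, against 286, 160.4 and 260.3 in MLN. In each the MMN arrays were close together and above all MLN arrays, with folds of 2.29, 2.42 and 2.84 and adjusted p of 0.044, 0.043 and 0.044. These calls were near the threshold. That of HVA22D was lost without MMN 1, MMN 2, MLN 1, MLN 2, MLN 3 or ILN 2 (adjusted p between 0.058 and 0.41), that of XERICO without MMN 1, MMN 2, MLN 1, MLN 2 or ILN 2 (adjusted p between 0.087 and 0.31) and that of NCED4 without MMN 1, MMN 2, MLN 1, MLN 2, MLN 3, ILN 2 or ILN 3 (adjusted p between 0.052 and 0.48). SRO5, linked to oxidative and salt stress, was firmer at 1.56 ± 0.22 (adjusted p = 0.0084), with 613 and 851 in MMN and 249, 244 and 242 in MLN, and its call was lost without MMN 2 (adjusted p = 0.19).

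Transcripts of pollen moved with MMN 2 as well, although none was called. They were noticed when the MMN arrays were compared and so were picked for their values. At3g07820, a polygalacturonase of pollen, had 18.9 and 301 on MMN 1 and MMN 2, against 56.7, 36.7 and 36.3 in MLN. At5g07430, a pectin methylesterase of pollen, had 23.0 and 184 in MMN and 50.0, 40.1 and 29.0 in MLN. PLIM2a, an actin-bundling LIM protein of pollen, had 37.1 and 215 in MMN and 65.4, 69.5 and 46.6 in MLN. In all 3, MMN 2 was the highest and MMN 1 the lowest of the 5 arrays, so that the pollen signal divided the MMN arrays rather than the nectary types. The 4 measured members of the 20 on the anther and pollen list had no call and a median difference of -0.18. Among them were EMS1 and SPL, regulators of early anther development. The summed signal of these 4 genes was 221 and 284 in MMN, against 264, 307 and 293 in MLN. No probe set reads 0, and the lowest signals ran from 9.09 on MMN 2 to 9.65 on MLN 3. Whether other tissue in the MMN 2 pool had a part in its high LTI30 and At2g23120 was not tested.

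**Figure D3:**
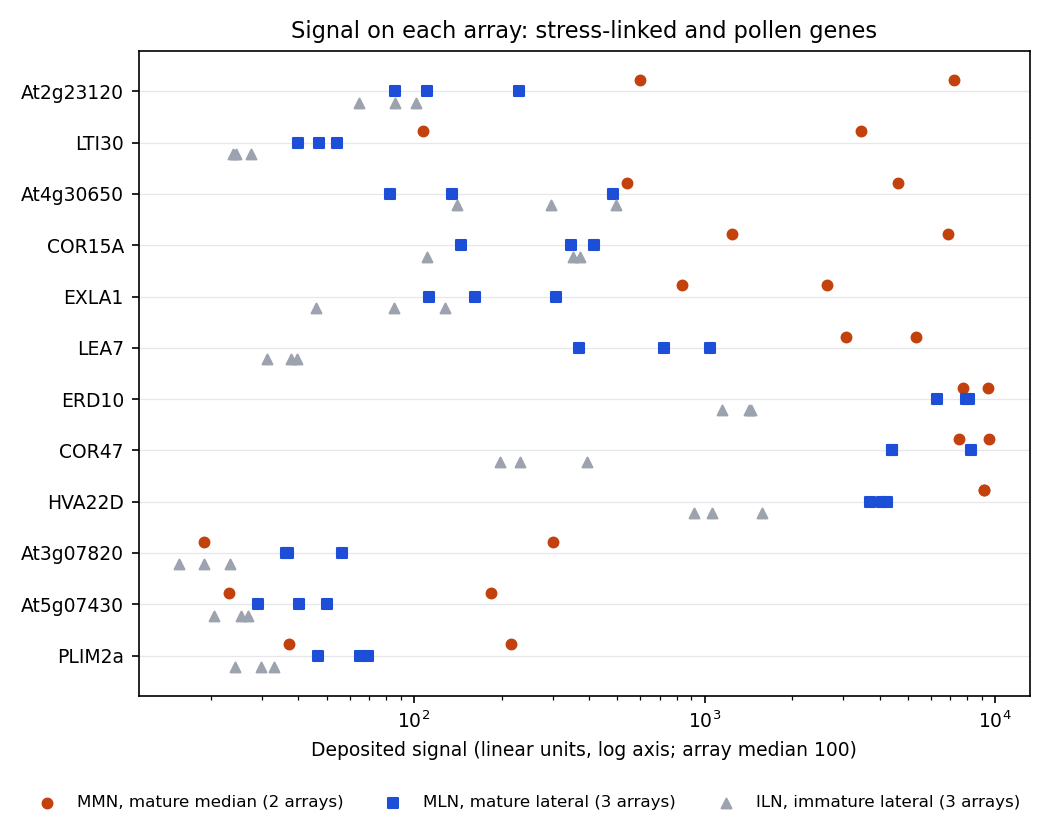
Deposited signal on each array (horizontal log axis) of 9 genes known from stress, cold or wall growth and 3 genes of pollen (bottom rows), with points for the MMN, MLN and ILN arrays. The MMN points of LTI30, at 108 and 3445, and of the pollen genes lie far apart, whereas those of HVA22D, at 9156 and 9109, nearly coincide.

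The genes lower in MMN were fewer and changed less. MYB7, an R2R3-MYB repressor related to MYB4 that dampens phenylpropanoid genes, fell the most, with 197 and 207 in MMN, against 1366, 913 and 967 in MLN. Both MMN arrays were nearly equal and lay more than 4-fold below each MLN array. The difference was -2.40 ± 0.29 (adjusted p = 0.0034) and the call was lost without MMN 2 (adjusted p = 0.051). Its relatives were not called. MYB4 had 2468 and 2068 in MMN and 2413, 2164 and 2099.9 in MLN, and MYB32 had 1900.5 and 1357 in MMN and 1636, 1643 and 1720.2 in MLN, with differences of 0.02 and -0.05. ILN had 123, 252 and 179 for MYB7, as low as MMN.

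JMT, jasmonic acid carboxyl methyltransferase, makes the volatile methyl jasmonate and is known for strong expression in nectaries. It had 1932 and 4763 in MMN, against 14178, 12445 and 19214 in MLN. Even the higher MMN array was below each MLN array, but the 2 MMN arrays themselves differed by more than 2-fold. The gene differed by -2.31 ± 0.36 (adjusted p = 0.013), and its call was lost without MMN 1 or MLN 1 (adjusted p between 0.054 and 0.11). ILN had 4749.7, 2689 and 3826, in the range of MMN. The other measured jasmonate genes, the JAZ repressors JAZ7 and JAZ12, were not called, with 0.68 and 0.30. UGT72E3, the glucosyltransferase named with its primers above, had 735 and 838 in MMN, against 2702, 2009 and 3470.4 in MLN. It differed by -1.76 ± 0.30 (adjusted p = 0.021), and the call was lost without MMN 1, MMN 2, MLN 1 or MLN 3 (adjusted p between 0.055 and 0.18).

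**Figure D4:**
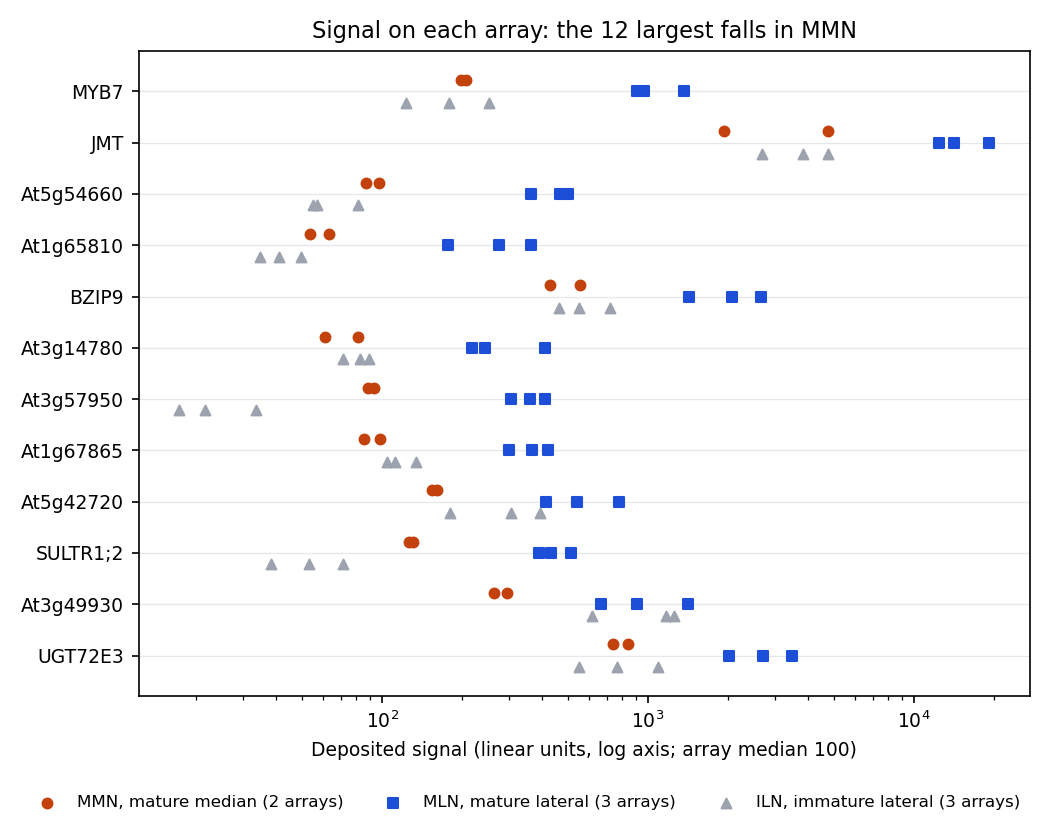
Deposited signal on each array (horizontal log axis) of the 12 genes with the largest called falls in MMN, with points for the 2 MMN, 3 MLN and 3 ILN arrays. The MMN points lie left of all MLN points in each row, as the choice of these genes required. The ILN points of MYB7, at 123, 252 and 179, are near those of MMN.

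Among the other falls, BZIP9, a leucine-zipper factor known from phloem and responsive to sugar status, had 428 and 553 in MMN, against 1422, 2667 and 2064 in MLN. SULTR1;2, a high-affinity sulfate transporter known from roots, had 131 and 127 in MMN, against 388, 512 and 433 in MLN. At5g54660, a small heat shock (HSP20)-like protein, had 86.9 and 97.3 in MMN, against 499, 466 and 363 in MLN. MMN and MLN arrays did not overlap for any of these 3 genes, as their choice among the largest falls required. BZIP9 differed by -2.03 ± 0.28 (adjusted p = 0.0078) and its call was lost without MMN 1 or MMN 2 (adjusted p between 0.060 and 0.081). SULTR1;2 differed by -1.78 ± 0.27 (adjusted p = 0.011) and its call was lost without MMN 1, MMN 2 or MLN 2 (adjusted p between 0.056 and 0.16). At5g54660 differed by -2.25 ± 0.25 (adjusted p = 0.0018) and was called in every fit that left out an array.

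At1g67865 held its call in those fits too, with 85.7 and 98.1 in MMN, against 299, 419 and 365 in MLN, and a difference of -1.96 ± 0.23 (adjusted p = 0.0024). Its neighbour At1g67860 was also lower, at 34.0 and 30.7 in MMN and 58.1, 79.2 and 88.2 in MLN (difference of -1.20 ± 0.21), and its call was lost without MMN 1, MMN 2, MLN 2, MLN 3 or ILN 2 (adjusted p between 0.070 and 0.37). By gene order these were the single pair of adjacent protein-coding genes with both members called, among the 106 called probe sets with 1 locus. The other 60 called probe sets could not be placed. At3g49930, a C2H2 zinc finger protein, read 294 and 263 in MMN and 1413, 668 and 907 in MLN, and its call (adjusted p = 0.045) was lost without MMN 1, MMN 2, MLN 1, MLN 2, MLN 3 or ILN 2 (adjusted p between 0.050 and 0.47). At5g42720, a glycosyl hydrolase of the glucanase family, read 154 and 161 in MMN and 414, 778 and 539.9 in MLN, and its call (adjusted p = 0.036) was lost without MMN 1, MMN 2, MLN 2 or MLN 3 (adjusted p between 0.074 and 0.29). At1g65810, At3g14780 and At3g57950, for which no role is given, fell by 2.16, 1.99 and 1.97 on the log2 scale, with adjusted p of 0.0077, 0.0088 and 0.0088, and each lost its call without MMN 1 and without MMN 2 (adjusted p between 0.064 and 0.12). AHL1, an AT-hook DNA-binding protein chosen after its values were seen, had 135 and 149 in MMN, against 539.6, 406 and 329 in MLN (adjusted p = 0.025), and its call was lost without MMN 1, MMN 2, MLN 1, MLN 2 or ILN 2 (adjusted p between 0.054 and 0.22).

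Across the 35 gene lists, 190 genes had a probe set of their own, 10 were called higher in MMN and 2 lower, and their median difference was 0.06, against -0.03 over all probe sets. Of the probe sets with 1 locus, 0.743% were called. Calls fell in 10 lists, and the other 25 had none. The lists were drawn up with earlier results of these arrays known, so that the counts are not independent evidence of a direction. All 25 probe sets that the study lists as 5-fold different in this comparison were called, but that list was itself chosen on these arrays. Of the 25, 4 read several near-identical genes and rose by 2.47 to 4.27. Of these 4, the aquaporin and the glutamate decarboxylase probe sets alone are named above.

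The measured genes on the lists of sucrose and starch metabolism, which supply nectar, were without a call. They were 8 of 30 sucrose entries and 11 of 33 starch entries. At3g17130, which the study groups under carbohydrate metabolism and which was called higher above, is not among them. None of 8 genes of sucrose metabolism passed the test (median 0.15). SUS1, a sucrose synthase, had 10729.7 and 13941 in MMN and 11955, 10891 and 17092 in MLN, and SPS1F, a sucrose phosphate synthase, had 3701 and 4151 in MMN and 3380.3, 3026 and 4592 in MLN, so both overlapped. Of 11 starch genes 10 had a difference above 0 and the median was 0.53, yet none was called. BAM1, a plastid beta-amylase, read 6045 and 6243 in MMN and 3278, 4943 and 4163 in MLN. DPE2, which handles maltose in the cytosol, read 527 and 571 in MMN and 222, 259.6 and 365 in MLN (difference of 0.99 ± 0.24, adjusted p = 0.12). The arrays of the groups did not overlap for either gene, as was so for 25.1% of all probe sets in one direction or the other.

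**Figure D5:**
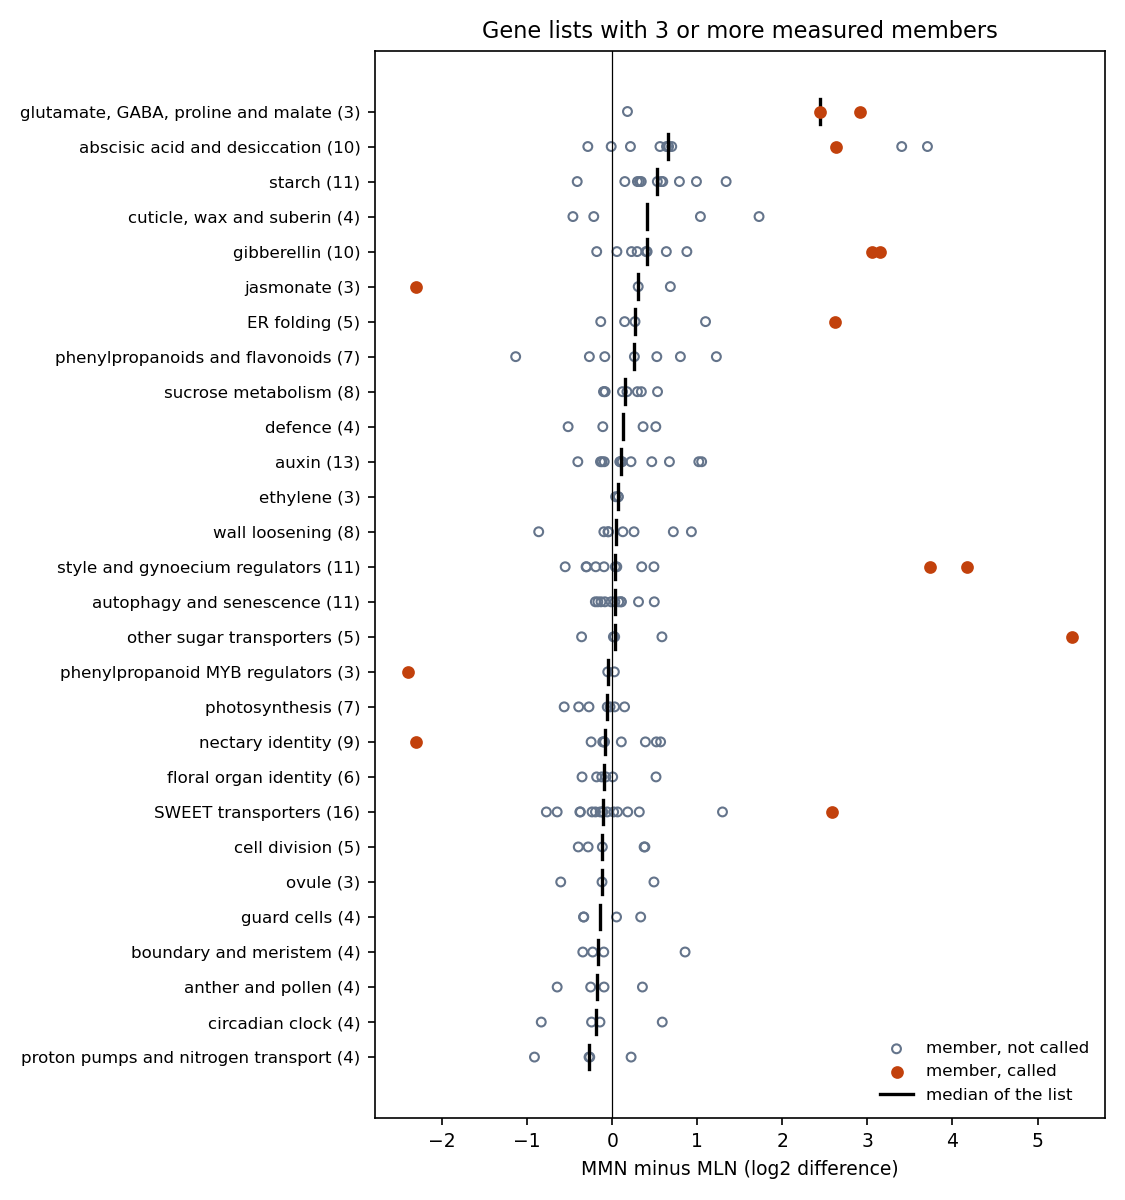
Log2 difference between MMN and MLN (horizontal axis) of each measured member of the 28 gene lists with at least 3 measured members, with the number of members in parentheses, filled points for called members and a black bar for the median. Most medians lie close to 0, and the starch list has a median of 0.53 with no filled point.

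The measured genes on the lists of auxin (13 of 46 entries), ethylene (3 of 18) and brassinosteroid (2 of 12) gave no call. CES, which acts in brassinosteroid responses and was called, was counted on the style list. Among 13 auxin genes the median was 0.11, and PIN6, an auxin carrier that is high in nectaries, had 12734 and 10884 in MMN and 12619.5, 9287 and 11160.0 in MLN. GH3.3, which conjugates auxin to amino acids and was chosen after its values were seen, had 105 and 90.5 in MMN and 46.8, 41.6 and 53.9 in MLN and was not called (adjusted p = 0.085). The groups overlapped for PIN6 and not for GH3.3. The 3 ethylene genes EIN3, EBF2 and ERS1 had differences of 0.07, 0.07 and 0.04. Of the 2 brassinosteroid genes, BR6OX2, of hormone synthesis, had 504 and 365 in MMN and 417, 413 and 393 in MLN, and DWF1, of sterol synthesis, had 245 and 169 in MMN and 251, 291 and 254 in MLN. In phenylpropanoid metabolism none of 7 genes was called. PAL4, a phenylalanine ammonia-lyase, had 10787 and 8833 in MMN and 12541, 9083 and 9807 in MLN, whereas its family member PAL2, picked after its values were seen, had 2530.5 and 2207 in MMN and 764, 1118 and 1212 in MLN (adjusted p = 0.10). CYP98A3, a hydroxylase of the same pathway, was picked likewise and ran the other way, with 249 and 296 in MMN and 641, 418 and 794 in MLN (adjusted p = 0.11).

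Amino acid carriers and proton pumps (4 genes, median -0.27) and genes of the cuticle, wax and suberin (4 genes, median 0.41) had no call. AAP4, an amino acid permease, had 3354 and 2915 in MMN, against 7848, 5407 and 4830.2 in MLN, with no overlap of arrays. Its difference of -0.92 ± 0.24 missed the threshold (adjusted p = 0.17). GPAT5, which makes suberin precursors, had 4859 and 4436 in MMN and 6206, 7421 and 5687 in MLN and was not called, and CER1, of wax alkane synthesis, had 1228 and 1064 in MMN and 430.2, 408 and 987 in MLN, with MLN 3 the high array of its group.

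None of 6 measured floral organ identity genes was called, and their median difference was -0.10. SHP2, a MADS-box factor of the carpel that acts upstream of CRC, had 7890.5 and 5921 in MMN and 7449, 7776 and 8088 in MLN. AP2, a factor of the outer floral whorls, had 2080.1 and 3024 in MMN and 2232, 2861 and 2444 in MLN, and both genes overlapped between the groups. SEP1, a MADS-box partner of the organ identity factors, stood above MLN on both MMN arrays at 2864 and 2853, against 2027, 2364 and 1674 in MLN, with an uncalled difference of 0.51. The 11 genes of autophagy and senescence, a process by which cells recycle their contents, had no call and a median of 0.03. ATG8F, a ubiquitin-like protein that coats autophagic membranes, was bright in both at 3737 and 3933 in MMN and 4376, 3478 and 4881 in MLN.

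Genes that follow the hour or the handling of a sample were also compared, since dissection ran over several hours of the day. None of 4 clock genes was called (median -0.19). CCA1, which peaks after dawn, had 1966 and 1554 in MMN and 1771, 3121 and 1604 in MLN, and GI, which peaks late in the day, had 825 and 1191 in MMN and 479, 415 and 1445 in MLN. The spread of both genes was wider within MLN than between the MMN arrays. Neither of the 2 genes responding to touch, wounding or heat was called (median -0.10), and HSP70 had 117 and 257 in MMN and 165, 223 and 265 in MLN. Among 4 defence genes (median 0.13) there was no call, and EDS1, a regulator of basal resistance, had 509 and 463 in MMN and 356, 405 and 274 in MLN. Of the 2 genes of floral volatiles, CYP71B31, a cytochrome P450 of flowers, had 2593 and 2371 in MMN, against 1351, 1326 and 1026 in MLN. Its arrays did not overlap and the difference of 1.02 ± 0.22 missed the threshold (adjusted p = 0.079).

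Marker lists of other floral and vegetative tissues gave no call, but few of their entries were measured. Measured were 3 of 8 ovule, 2 of 11 phloem, 1 of 10 xylem and 4 of 15 guard cell entries. The same held for 2 of 9 abscission zone, 4 of 14 boundary and meristem, 7 of 26 photosynthesis and 5 of 14 cell division entries. The medians of these lists lay between -0.23 and 0.02. RCA, rubisco activase, had 6171 and 6173 in MMN and 4521, 5976 and 6444 in MLN, and STM, a meristem factor, had 5946 and 5638 in MMN and 8305, 7028 and 6839 in MLN. STM was below the MLN range on both MMN arrays without being called. INO, an ovule gene, and IRX3, a cellulose synthase of xylem, were dim in both, the first with 57.8 and 58.3 in MMN and 108, 85.5 and 74.5 in MLN. PP2-A2, a phloem lectin that stands on none of these lists and was picked for its values, had 335 and 215 in MMN, against 101, 75.3 and 39.0 in MLN (adjusted p = 0.038), and its call was lost without MMN 1, MMN 2, MLN 2, MLN 3 or ILN 2 (adjusted p between 0.054 and 0.30).

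In the immature lateral nectaries all 20 of the largest rises read below both MMN arrays. For 8 of them the ILN arrays were also below all MLN arrays, for 11 ILN and MLN overlapped, and for GASA4 alone ILN was above MLN. For 11 of the 12 largest falls ILN lay below MLN as well. At1g20070, picked after its values were seen, had 8663 and 9074 in MMN, 2164, 2765 and 1943 in MLN and 53.2, 45.8 and 61.8 in ILN, and was called in every fit that left out an array. Some called genes were brightest in ILN. ACR4, an ACT-domain protein, had 624 and 613 in MMN, 232, 284 and 345 in MLN and 3347, 3017 and 2674 in ILN. AGP10, an arabinogalactan protein of the wall, had 647 and 929 in MMN, 327, 237 and 277 in MLN and 2594, 2053 and 1329 in ILN. SCPL34, a serine carboxypeptidase-like protein, had 135 and 149 in MMN, 51.6, 72.5 and 64.9 in MLN and 729, 806 and 630.0 in ILN. In these 3 genes MMN lay between MLN and ILN, and all were picked after their values were seen. Their adjusted p between MMN and MLN were 0.041, 0.044 and 0.041, and the calls were lost for ACR4 without MMN 1, MMN 2, MLN 1, MLN 2 or ILN 2 (adjusted p between 0.091 and 0.38), for AGP10 without MMN 1, MMN 2, MLN 1, MLN 2, MLN 3 or ILN 2 (adjusted p between 0.087 and 0.61) and for SCPL34 without MMN 1, MMN 2, MLN 1, MLN 2, MLN 3 or ILN 2 (adjusted p between 0.056 and 0.47). PGIP2, an inhibitor of fungal polygalacturonases picked in the same way, was lower in MMN and likewise brightest in ILN, with 401 and 276 in MMN, 987, 1049.5 and 786 in MLN and 3619, 6288 and 5871 in ILN. Its adjusted p between MMN and MLN was 0.035, and the call was lost without MMN 1, MMN 2, MLN 1, MLN 2 or ILN 2 (adjusted p between 0.052 and 0.50).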

How the data were processed

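RNA was amplified once to biotin-labelled aRNA and hybridized to ATH1 arrays, 1 pool to each. The authors deposited linear intensity values. They had summarized them by RMA with quantile normalization in Expressionist (Genedata), in one run with public arrays of other tissues, and brought the median of each array to 100. Versions of that software are not given in the sources used. Normalization with other tissues and the background held in dim signals can shrink differences of dim genes. The number of arrays limits the precision.

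After 64 of the 22810 probe sets, all controls, had been left out, log2 signals of 22746 were fitted in limma 3.58.1 (R 4.3.3) with 1 mean for each nectary type over all 8 arrays and with variances that follow the mean signal. P of the contrast MMN minus MLN was adjusted by the Benjamini-Hochberg method, and standard errors and folds of geometric means come from the same fit. The procedure was tested on simulated arrays. Pools came from different plants, and p-values measure the spread between pools. Extraction and labelling batches are not known here.

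Apart from a shared aquaporin and a shared glutamate decarboxylase probe set, naming required exactly 1 locus in the platform annotation or the study's tables. This held for 14268 probe sets, 546 had several loci, 10 were given different loci by the sources and 7922 had none here. Symbols come from RefSeq's table of the TAIR10.1 assembly. The files name no genome build and no coordinates are given. Primer sequences come from the study's supplementary primer table. Promoter and protein sequences were not used here. Of 700 entries in 35 gene lists 17 were left out because their symbol did not match the locus, and most others have no probe set of their own in these tables.

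The genes named are the 20 largest rises and 12 largest falls among called probe sets of 1 locus with at least 2-fold difference and no overlap of arrays, the genes of the study's 5-fold list and those its text names for this comparison, and in each list up to 6 called members and the 3 with the highest mean signal. Others are said to be picked after their values were seen. The members and lists were chosen with earlier results of these data known.

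As alternatives, the methods' t-test was run (unadjusted, with Benjamini-Hochberg adjustment and with Storey's q). Limma was rerun on the brighter part of the probe sets, after quantile normalization of the 8 arrays, after median centring, with an offset of 16 added, with constant prior variance, with weighted arrays, on MMN and MLN arrays alone, with a block for replicate number, and 8 times with 1 array omitted. Figures were drawn with Python 3.11.15 and matplotlib 3.10.9.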

Additional observations from a re-analysis of the deposited data

How the results depend on the processing

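All 32 genes with the largest rises and falls kept their direction in every setting that measured them. They had been chosen with no overlap of arrays, so leaving out an array could not reverse a direction. Their kept direction is therefore no evidence of stability. The counts of calls, 130 higher and 36 lower in MMN (125 and 36 at 2-fold or more), moved more. Leaving out each array in turn gave 38 to 237 higher and 3 to 71 lower calls (38 to 218 and 3 to 68 at 2-fold or more). The counts higher in MMN moved by over 1.5 times without MMN 2 (38), MLN 1 (71), MLN 2 (73) or ILN 1 (237). Those lower did so without MMN 1 (5), MMN 2 (3), MLN 1 (13), MLN 2 (15), ILN 1 (71) or ILN 2 (19). With an MMN array left out, the lone MMN array is assumed to vary like the other groups. Of the 166 calls, 63 were kept without MMN 1 and 40 without MMN 2.

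The methods' t-test on linear signals of 2 and 3 arrays gave 924 higher and 739 lower calls without adjustment (222 and 57 at 2-fold or more). The limma fit had 1685 probe sets in either direction with an unadjusted p under 0.05. After Benjamini-Hochberg adjustment, and likewise with Storey's q, the t-test gave 1 higher and 0 lower at any fold and at 2-fold. This rerun did not give back the study's list of 25 probe sets, which passed a q under 0.05 at 5-fold or more. The study took genes called present in at least 1 nectary type, whereas the rerun covered all 22746 probe sets. The adjusted limma calls were 130 and 36 (125 and 36 at 2-fold or more). Array weights gave 392 higher and 183 lower (273 and 101 at 2-fold or more). A fit of MMN and MLN arrays alone gave 55 lower, also at 2-fold or more. The brighter part of the probe sets, a new quantile normalization, centring, an offset of 16 and no variance trend left all 4 counts within 1.5 times. The cause of these changes was not tested.

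With replicate number as a block the calls were 196 higher and 79 lower (191 and 71 at 2-fold or more). The sample titles number the replicates without saying whether the numbers pair the arrays. Deviations of same-numbered MMN and MLN arrays from their group means correlated at 0.072 and -0.020 across probe sets. With 2 MMN arrays the MMN deviations mirror each other, so these correlations cannot decide whether arrays were paired. The block kept 157 of the 166 calls.

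Signals near background limit what can be seen. A gene listed as dim in both groups may differ without being detectable on these arrays, and with 2 MMN arrays a gene that is uneven between them has a wide error, such as LTI30 (difference of 3.71 ± 0.98, adjusted p = 0.17).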

Other observations

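Some called genes that belong to none of the groups above were seen only after the values had been examined. BCB, a blue copper-binding protein, had 211 and 489 in MMN, against 106, 50.3 and 53.6 in MLN (adjusted p = 0.025), and its call was lost without MMN 2, MLN 2 or MLN 3 (adjusted p between 0.074 and 0.34). GSTU20, a glutathione transferase, had 911 and 584 in MMN, against 209.9, 188 and 120.0 in MLN, while ILN had 323, 481 and 504, and its call was lost without MMN 1 (adjusted p = 0.10). NHL1, of the NDR1/HIN1-like family, had 1593 and 2152 in MMN, against 638, 699 and 529.6 in MLN and 46.5, 46.8 and 43.2 in ILN, and its call was lost without MMN 2 (adjusted p = 0.16). The first was uneven between the MMN arrays, and all 3 stood above MLN on both of them.

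At1g75900 and OEP16-1 were further called genes that, like ACR4, AGP10 and SCPL34 above, were lowest in MLN and highest in ILN. They are examples, as other called probe sets had this order too. At1g75900, an extracellular lipase-like protein, had 293 and 253 in MMN, 97.3, 79.4 and 65.1 in MLN and 1261, 2510.3 and 2964 in ILN, with an adjusted p between MMN and MLN of 0.037. OEP16-1, a channel protein of the plastid envelope, had 299 and 305 in MMN, 136, 91.9 and 150.4 in MLN and 655, 694 and 839 in ILN, with an adjusted p of 0.041. Neither call was firm, since that of At1g75900 was lost without MMN 1, MMN 2, MLN 1, MLN 2, MLN 3 or ILN 2 (adjusted p between 0.065 and 0.26) and that of OEP16-1 without MMN 1, MMN 2, MLN 1, MLN 2 or ILN 2 (adjusted p between 0.086 and 0.39).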
